A study of Mus musculus with 6 samples.

Results

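The 9 genes described here mark GABAergic interneurons, the inhibitory cells of the cerebral cortex. They were taken from the array by gene symbol, as every probe set whose single annotated symbol is Gad1, Gad2, Slc32a1, Pvalb, Calb1, Calb2, Lhx6, Dlx1 or Erbb4. That gave 18 probe sets out of 45101 on the array, and 9 genes out of 18193 with a single symbol. Of these, 13 probe sets of 8 genes reached a mean intensity of 50 in at least 1 group and were tested among 12070 genes. Erbb4 did not reach that minimum in either group.

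Interneurons make the inhibitory transmitter GABA from glutamate with glutamate decarboxylase, and a vesicular transporter loads it for release. Most cortical interneurons are born outside the cortex, in the ganglionic eminences, under the control of homeobox genes of the Dlx and Lhx families, and reach the cortex by migration. Mature interneurons fall into subtypes told apart by calcium-binding proteins and neuropeptides, and the pyramidal cells around them release glutamate instead.

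RNA was compared between 3 TRAP samples and 3 unbound samples, each hybridised to 1 array. Translating ribosome affinity purification (TRAP) pulls down tagged ribosomes with the mRNA on them. Here the tag was carried by a bacterial artificial chromosome (BAC) transgene with S100a10 as driver (line ES691), in cortex of untreated mice of FVB origin crossed to C57BL/6 for 3 to 5 generations. The TRAP group was the precipitated RNA and the unbound group was whole cortex RNA left in the flow-through, which the sample titles call input. Both groups came from the same transgenic line, so there was no group without the transgene. The series is titled as a comparison of S100a10-expressing pyramidal cells with whole cortex, and its text adds that the driver also labels some non-neuronal cells and points to a restricted probe set list, which was not used here. Ages and numbers of animals are not given in the sources used here, so each p-value is set against the variation among these 3 samples per group, part of which may be technical.

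The driver gene S100a10 (1456642_x_at) had intensities of 14362, 15087 and 12934 on the TRAP arrays, against 2950, 2174 and 2165 on the unbound arrays, a 5.86-fold difference (limma adjusted p = 8.4e-05). The median over all probe sets was 31.4 to 31.8 on TRAP arrays and 42.4 to 43.1 on unbound arrays, and over all genes tested the log2 fold change had a median of -0.21. Between 17.9% and 21.6% of kept probe sets held exactly the same value on a pair of arrays of 1 group, while the share between a TRAP array and an unbound array was 0%, so a small SD below can come from repeated values. The labels do not say whether the 2 groups were normalised in 1 run, so an offset from processing and a difference between TRAP and unbound RNA cannot be told apart in the size of the fold changes. In bulk RNA of this kind, fewer interneurons contributing to a fraction and less RNA contributed per interneuron cannot be told apart.

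All 8 tested genes were lower in TRAP RNA than in unbound RNA by limma (Benjamini-Hochberg adjusted p over the 12070 genes), and in each of them the 3 TRAP arrays lay below the 3 unbound arrays. None of the 8 was higher. Over the whole array 45.7% of genes tested were called lower, 23.3% higher and 69% in either direction, and 49.6% had TRAP arrays wholly below unbound arrays, so the counts are read against that background. The median log2 fold change of the 8 genes was -1.70, against the -0.21 of all genes. A test against a change of 2-fold (limma treat) called 4 of the 8, namely Pvalb, Gad2, Calb2 and Dlx1, where it called 6.43% of all genes lower and 4.51% higher. The median is over the genes that passed the filter and leaves out Erbb4.

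**Figure D1:**
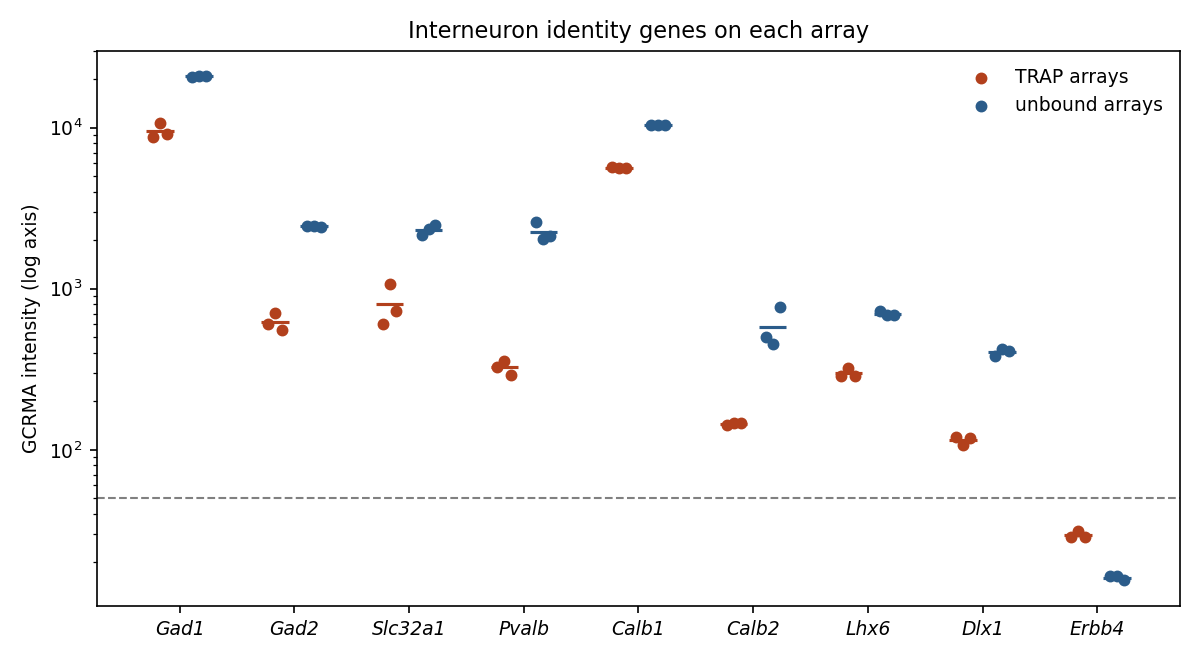
GCRMA intensity (log axis) of the representative probe set of each gene, 1 point per array, with TRAP arrays in red left of unbound arrays in blue, short bars at group means and the minimum of 50 dashed. TRAP points lie below unbound points for 8 genes, and Erbb4 lies under the minimum in both groups, at 28.8 to 31.1 on TRAP arrays and 15.4 to 16.4 on unbound arrays.

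The first role is making and packing GABA. Gad1 encodes the glutamate decarboxylase that supplies most GABA in the cell. Its brighter probe set (1416561_at) had intensities of 8765, 10617 and 9178 on the TRAP arrays, against 20569, 20932 and 20932 on the unbound arrays. The 2 groups did not overlap, and 2 of the unbound values were identical. Gad1 was 2.19-fold lower in TRAP RNA (log2 fold change -1.13, SE 0.08, limma adjusted p = 1.6e-04), a difference that did not pass the test against 2-fold (adjusted p = 0.49).

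The dimmer Gad1 probe set (1416562_at) gave a wider difference. It read 189, 189 and 173 on the TRAP arrays, against 800, 875 and 863 on the unbound arrays. That is 4.61-fold lower in TRAP RNA (log2 -2.20, SE 0.06, limma adjusted p = 5.3e-06 over all probe sets), so the size of the Gad1 difference depended on the probe set while its direction did not.

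Gad2 encodes the other decarboxylase, found largely at nerve terminals. Its intensities (1429589_at) were 603, 710 and 553 on the TRAP arrays, against 2468, 2434 and 2419 on the unbound arrays. The 3 unbound values were close together and all above the TRAP values. Gad2 was 3.95-fold lower in TRAP RNA (log2 -1.98, SE 0.10, limma adjusted p = 5.1e-05). A second probe set (1421978_at) read 70.0, 83.5 and 70.0 on the TRAP arrays, against 439, 148 and 306 on the unbound arrays, 3.65-fold lower with a wide 95% interval of the log2 fold change, from -2.95 to -0.79.

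Slc32a1 encodes VGAT, the transporter that fills synaptic vesicles with GABA or glycine. It read (1422756_at) 604, 1066 and 726 on the TRAP arrays, against 2147, 2358 and 2476 on the unbound arrays. The spread was widest on the TRAP side, where replicate 2 was the highest, and the groups still did not overlap. Slc32a1 was 2.99-fold lower in TRAP RNA (log2 -1.58, SE 0.22, limma adjusted p = 0.0022), without passing the test against 2-fold (adjusted p = 0.18).

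The other Slc32a1 probe sets were dim. One (1456457_at) held a single repeated value of 47.7 on the TRAP arrays and of 58.9 on the unbound arrays, a log2 fold change of -0.30 that turned to 0.13 after centring each array on the median of all probe sets. The remaining 2 stayed under the minimum, with TRAP means of 37.4 and 3.02 against unbound means of 22.7 and 3.33, and were not tested.

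The promoters of these 3 genes are shown because the genes act in 1 pathway and were lower together. They are RefSeq sequences on GRCm38.p6 in windows of 300 bases that span the transcript start, and 7 of the 9 genes had an entry. Gad1 lies at chr2:70561879-70562178 (plus strand), Gad2 at chr2:22622077-22622376 (plus strand) and Slc32a1 at chr2:158610508-158610807 (plus strand). Capitals mark matches on either strand to TATAAA (the TATA box) or GGGCGG (the GC box), and TAATT (a homeodomain core) was also searched.
Gad1: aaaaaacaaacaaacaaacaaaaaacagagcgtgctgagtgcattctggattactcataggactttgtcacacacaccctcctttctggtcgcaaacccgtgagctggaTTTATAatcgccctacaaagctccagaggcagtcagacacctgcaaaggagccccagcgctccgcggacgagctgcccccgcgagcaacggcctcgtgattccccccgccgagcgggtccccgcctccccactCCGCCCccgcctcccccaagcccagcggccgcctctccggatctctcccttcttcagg
Gad2: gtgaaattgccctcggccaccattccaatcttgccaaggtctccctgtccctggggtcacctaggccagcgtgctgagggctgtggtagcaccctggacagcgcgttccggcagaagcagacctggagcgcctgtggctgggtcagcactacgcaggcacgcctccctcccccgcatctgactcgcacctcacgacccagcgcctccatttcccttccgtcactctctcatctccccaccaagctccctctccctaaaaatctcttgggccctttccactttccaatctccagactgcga
Slc32a1: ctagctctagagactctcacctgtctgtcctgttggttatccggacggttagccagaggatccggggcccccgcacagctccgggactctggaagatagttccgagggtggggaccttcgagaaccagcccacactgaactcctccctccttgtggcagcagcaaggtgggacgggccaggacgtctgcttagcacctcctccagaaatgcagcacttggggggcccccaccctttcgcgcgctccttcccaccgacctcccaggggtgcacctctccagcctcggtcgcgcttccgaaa

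Gad1 held 1 match to TATAAA and 1 to GGGCGG, which do not overlap. Gad2 and Slc32a1 held none of the 3 motifs in this window. Among 32851 promoter windows of the same length, 13.6% held TATAAA, 35.7% GGGCGG and 27.0% TAATT. The windows of Gad1, Gad2 and Slc32a1 had 60.0%, 61.3% and 63.3% G or C, above the median of 52.7% over all windows, and 21, 14 and 17 CpG dinucleotides against a median of 7. These matches are descriptions of the letters and not sites.

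The second role is buffering calcium, and these 3 genes separate interneuron subtypes. Pvalb encodes parvalbumin, the buffer of fast-spiking basket and chandelier cells. It read (1417653_at) 326, 355 and 292 on the TRAP arrays, against 2582, 2029 and 2110 on the unbound arrays. The highest TRAP value was far below the lowest unbound value. Pvalb was 6.89-fold lower in TRAP RNA (log2 -2.78, SE 0.12, limma adjusted p = 3.5e-05, and adjusted p = 3.6e-04 against 2-fold), the largest difference of the 8 genes. Only 0.87% of all genes tested had a log2 fold change at or below it.

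Calb2 encodes calretinin, which marks a population that overlaps with vasoactive intestinal peptide (VIP) cells. It read (1451129_at) 143, 146 and 146 on the TRAP arrays, against 498, 457 and 773 on the unbound arrays. Unbound replicate 3 stood above the other 2 unbound arrays, and the TRAP values were nearly the same. Calb2 was 3.87-fold lower in TRAP RNA (log2 -1.95, SE 0.21, limma adjusted p = 8.2e-04), and without unbound replicate 3 the log2 fold change was -1.72.

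Calb1 encodes calbindin, which is present in a set of interneurons and also in upper-layer pyramidal cells and striatal projection neurons. Its brightest probe set (1417504_at) read 5727, 5635 and 5605 on the TRAP arrays, against 10388, 10347 and 10347 on the unbound arrays. It was 1.83-fold lower in TRAP RNA (log2 -0.87, SE 0.03, limma adjusted p = 9.5e-06), the smallest difference of the 8 genes when each is represented by its brightest probe set, and its small error goes with 2 identical unbound values. With the mean of a gene's probe sets Calb1 stood at -1.33 and Slc32a1 had the smallest difference at -0.94. Other Calb1 probe sets gave more: 1456934_at read 208, 203 and 146 on the TRAP arrays, against 674, 646 and 562 on the unbound arrays (3.41-fold lower). Probe set 1448738_at read 133, 102 and 77.5 on the TRAP arrays, against 316, 257 and 219 on the unbound arrays (2.57-fold lower). The fourth (1458836_at) was under the minimum, at a TRAP mean of 5.78 and an unbound mean of 21.5.

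**Figure D2:**
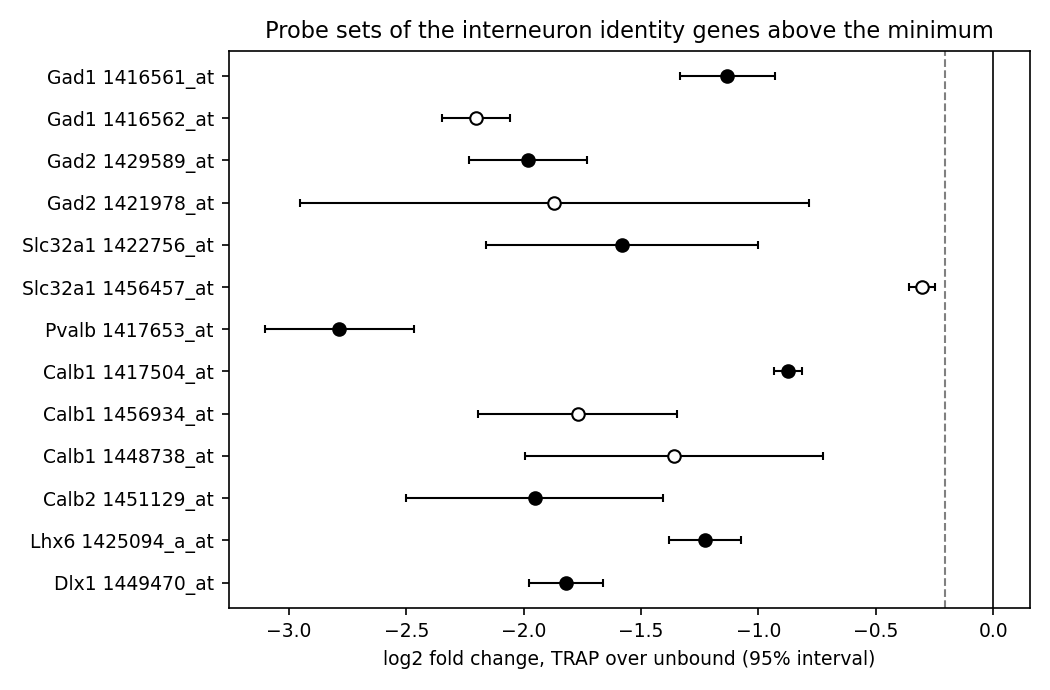
Log2 fold change of TRAP over unbound for the 13 tested probe sets, with 95% intervals from limma; filled points represent their gene, open points are other probe sets, and the dashed line is the median of all genes at -0.21. All points lie below 0, from -2.78 for Pvalb to -0.30 for the dim Slc32a1 probe set.

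The third role is specifying the lineage. Lhx6, a LIM homeobox gene, is needed for parvalbumin and somatostatin interneurons from the medial ganglionic eminence and stays on in adult cells. It read (1425094_a_at) 287, 321 and 287 on the TRAP arrays, against 728, 685 and 685 on the unbound arrays. Each group held a repeated pair and the groups were apart. Lhx6 was 2.34-fold lower in TRAP RNA (log2 -1.23, SE 0.06, limma adjusted p = 4.8e-05) and narrowly missed the test against 2-fold (adjusted p = 0.054). Its other probe set was under the minimum, at a TRAP mean of 3.67 and an unbound mean of 4.77.

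Dlx1, a homeobox gene of migrating interneurons that persists in some adult subtypes, was represented by 1 probe set (1449470_at). It read 120, 107 and 118 on the TRAP arrays, against 383, 420 and 412 on the unbound arrays. The values within each group were all different and close together. Dlx1 was 3.53-fold lower in TRAP RNA (log2 -1.82, SE 0.06, limma adjusted p = 1.5e-05, and adjusted p = 5.0e-04 against 2-fold).

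Erbb4 encodes the neuregulin receptor tyrosine kinase of interneurons, through which pyramidal cells and axons regulate their inputs. Its only probe set (1427783_at) read 28.8, 31.1 and 28.8 on the TRAP arrays, against 16.4, 16.4 and 15.4 on the unbound arrays. These values lie under the minimum in both groups and run opposite to the other 8 genes. With no filter on low values limma gave a log2 fold change of 0.88 (adjusted p = 5.8e-05), which rests on intensities near background.

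Across the 13 tested probe sets of the 8 genes, 13 were called lower and 13 had TRAP arrays wholly below unbound arrays. Of all 22591 kept probe sets, 47.7% were called lower and 51.8% were wholly below. Same-numbered TRAP and unbound samples deviated together, so differences within each pair of samples were also computed. Each of the 8 genes was lower in 3 of 3 pairs. This had to follow, because their TRAP arrays lay wholly below their unbound arrays, as for 49.6% of genes tested. The pair differences of Pvalb ran from -2.99 to -2.51 on the log2 scale, those of Calb1 from -0.88 to -0.86, and those of Slc32a1 from -1.83 to -1.15, with pair 2 the smallest for Slc32a1, Pvalb, Gad1, Gad2, Lhx6 and Calb2 but not for Dlx1 or Calb1.

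The log2 ratio of each gene to Gad1 within an array was compared between groups, and for 5 of the 7 ratios the direction depended on the Gad1 probe set. Pvalb and Calb1 kept theirs. Relative to the brighter Gad1 probe set, the Pvalb ratio differed by a log2 difference (TRAP minus unbound) of -1.65, and relative to the dimmer one by -0.58. The Calb1 ratio was higher in TRAP RNA by 0.26 and 1.33 on the same 2 scales. The other 5 ratios were lower against the brighter probe set (Gad2 -0.85, Calb2 -0.82, Dlx1 -0.69, Slc32a1 -0.45 and Lhx6 -0.09) and higher against the dimmer one (Gad2 0.22, Calb2 0.25, Dlx1 0.39, Slc32a1 0.62 and Lhx6 0.98). The groups did not overlap except for Lhx6 against the brighter and Calb2 against the dimmer probe set. The exact two-sided permutation test gave p = 0.1 for the ratios without overlap (adjusted over the 7 ratios of each scale, 0.12), the smallest value that 3 against 3 samples allow, so it could not reach 0.05. The same exact test gave p = 0.3 for Lhx6 and p = 0.4 for Calb2 where they overlapped. The dimmer probe set was added after seeing the data.

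The difference was also set against scalings of the arrays, because the median of all genes was itself below 0. Centring each array on the pan-neuronal genes listed below left all 8 genes called lower, with a median log2 fold change of -1.33. On that scale Pvalb stood at -2.41, Gad2 at -1.61, Gad1 at -0.76 and Calb1 at -0.50. The centre was the mean of 17 genes, whose mean log2 fold change as deposited (-0.37) lay below their median (-0.22). Map2, at -2.93, weighed on that mean. Centring on the median of all probe sets moved the median of all genes to 0.23, and the 8 genes were still called lower with a median of -1.27.

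**Figure D3:**
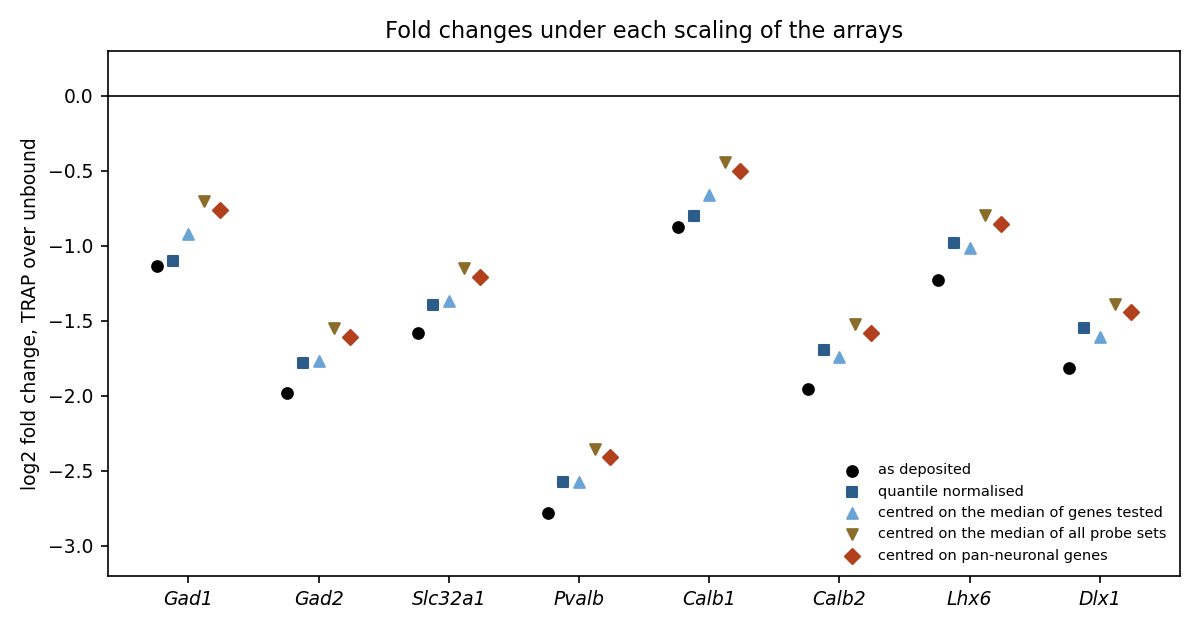
Log2 fold change of TRAP over unbound for the 8 tested genes under 5 scalings of the arrays. Each gene keeps its sign under each scaling, with Pvalb between -2.78 and -2.35 and Calb1 between -0.87 and -0.44.

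Lists of further interneuron genes were described by counts, beside 45.7% lower and 23.3% higher over all genes tested. Of 12 tested transcription factor genes of the lineage, 7 were lower and 4 higher, with a median log2 fold change of -1.0. Sox6, which acts after Lhx6 in cells of the medial ganglionic eminence, averaged 70.3 ± 8.87 in TRAP RNA and 739 ± 20.6 in unbound RNA (SD, n = 3 each), 10.6-fold lower (limma adjusted p = 9.6e-06). Npas3 was 4.85-fold and Prox1, a factor of interneurons from the caudal eminence, 3.81-fold lower, and Prox1 had TRAP values under 50. The Sox6 probe set is of a kind (x_at) that may bind other transcripts. Whether cells other than interneurons gave part of the lower values of Sox6, Npas3 and Prox1 was not tested. Dlx2, the neighbour and partner of Dlx1, was 2.66-fold lower (chosen after its value was seen). When both group means had to reach 50, 8 factors were left, 3 of them lower, and the median was 0.12.

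The 4 higher factors were Lhx8, Nr2f2, Maf and Satb1. Lhx8, a LIM homeobox gene of cholinergic and other ventral forebrain neurons, averaged 762 ± 184 in TRAP RNA and 142 ± 19.7 in unbound RNA (SD, n = 3 each), 5.29-fold higher (limma adjusted p = 3.7e-04). Nr2f2, which also acts in veins and mesenchyme, was 2.47-fold higher, as was Maf, which also acts in lens and in macrophages. Satb1, a chromatin organiser also of T cells, was 1.33-fold higher (limma adjusted p = 0.0498) and was chosen after its value was seen. Without TRAP replicate 3 only 2 factors were higher.

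Genes of interneuron subtypes divided. Of 20 tested, 12 were lower, 2 higher and 6 not called, with a median of -0.77. After centring on the median of all probe sets 9 were lower and 7 higher (median -0.34), and after centring on pan-neuronal genes 10 and 6 (median -0.40). Quantile normalisation gave 11 lower and 3 higher, and centring on the median of genes tested 12 and 2 (median -0.56 under both). Tac1, which encodes substance P, averaged 955 ± 278 in TRAP RNA and 5867 ± 73.6 in unbound RNA (SD, n = 3 each), 6.33-fold lower. Markers of striatal projection neurons were lower as well (median -1.71), and the part of those cells in the Tac1 values was not tested. Vip was 5.15-fold lower, at 450 ± 44.2 in TRAP RNA and 2321 ± 274 in unbound RNA. Reln, which encodes reelin and marks layer 1 and neurogliaform cells, was 4.74-fold lower. The higher genes were Ndnf, another neurogliaform gene, at 2.24-fold, and Chodl, a gene of long-range somatostatin cells, at 1.74-fold.

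Sst and Npy did not pass the test, and both were named after their values were seen. Sst, which encodes somatostatin, averaged 1699 ± 426 in TRAP RNA and 1426 ± 99.9 in unbound RNA (SD, n = 3 each; log2 fold change 0.23, limma adjusted p = 0.32). Npy, which encodes neuropeptide Y, averaged 2749 ± 570 in TRAP RNA and 2383 ± 146 in unbound RNA (log2 0.19, limma adjusted p = 0.38). Both were called higher when arrays were centred on the median of all probe sets (log2 0.66 for Sst and 0.62 for Npy) or on pan-neuronal genes (0.60 and 0.56). Neither was called after quantile normalisation (0.40 and 0.34) or after centring on the median of genes tested (0.44 and 0.39). The ratio of each to Pvalb within an array differed between groups by a log2 difference of 3.01 for Sst and 2.97 for Npy, against 0.42 for Vip. The ratios did not overlap between groups for any of the 3, with an exact two-sided permutation p = 0.1 each, the smallest possible (adjusted over the 3, also 0.1). A design of 3 against 3 cannot reach 0.05 in this test. These ratios were chosen after the values were seen.

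Genes of fast-spiking basket cells, the cells that carry parvalbumin, were lower in 10 of 11 tested and higher in 0, with a median of -1.31. Hapln1, a link protein of the perineuronal net around these cells, averaged 24.6 ± 2.35 in TRAP RNA and 296 ± 49.3 in unbound RNA (SD, n = 3 each), with TRAP values under 50. Kcns3, a potassium channel modifier, was 3.81-fold lower, also with TRAP values under 50, and Kcnc1, the Kv3.1 channel that permits fast firing, 2.87-fold lower. Hapln1 and Kcns3 passed the filter through the unbound group alone, so their lower values go with the filter, also in the count of 10. Kcnab3, named after its value was seen, was not called (log2 -0.02) and was called higher after centring on the median of all probe sets (0.42), after quantile normalisation (0.25) and after centring on pan-neuronal genes (0.36). It was not called after centring on the median of genes tested (0.19). Several of these genes are also transcribed in pyramidal or glial cells.

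Genes that take up, break down or feed GABA went both ways, with 5 of 10 tested lower and 3 higher. The list median of -0.06 turned to 0.37 when arrays were centred on the median of all probe sets, to 0.31 when centred on pan-neuronal genes, to 0.02 after quantile normalisation and to 0.15 when centred on genes tested. The counts turned too, to 3 lower and 6 higher when centred on the median of all probe sets and to 4 and 5 when centred on pan-neuronal genes or on genes tested. Quantile normalisation gave 4 lower and 3 higher. Abat, the transaminase that degrades GABA, averaged 1181 ± 64.3 in TRAP RNA and 3375 ± 136 in unbound RNA (SD, n = 3 each), 2.86-fold lower (limma adjusted p = 1.9e-05). The transporter gene Slc1a1 was 2.55-fold and Aldh5a1, the next enzyme after Abat, 1.95-fold lower. Slc6a13, the GABA transporter GAT2 of the leptomeninges, averaged 1214 ± 120 in TRAP RNA and 50.3 ± 9.65 in unbound RNA (SD, n = 3 each), 24.4-fold higher (limma adjusted p = 1.7e-05). Slc6a12, the betaine and GABA transporter, was 97.7 ± 12.6 in TRAP RNA and repeated a value of 11.3 in unbound RNA, and Slc38a2, a glutamine transporter gene, was 1.75-fold higher. Slc6a12 passed the filter through the TRAP group alone.

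Genes of neuregulin and ErbB signalling, the pathway of Erbb4, were lower in 10 of 11 tested and higher in 1, with a median of -1.01. Under centring on the median of all probe sets or on pan-neuronal genes 7 were lower (medians -0.58 and -0.64). With quantile normalisation or centring on the median of genes tested 8 were lower (medians -0.84 and -0.80). The number higher stayed at 1 under each. Erbb3, the neuregulin receptor of oligodendrocytes and Schwann cells, read 17.2 ± 1.01 in TRAP RNA, against a repeated value of 108 in unbound RNA. Erbb3 and Egfr (TRAP mean 46.0) passed the filter through the unbound group alone. The ligand gene Tgfa was 2.72-fold and the protease gene Adam17 2.34-fold lower, and the ligand gene Hbegf was 1.73-fold higher. Nrg1 and Nrg3, which encode ligands of ErbB4, were 1.57-fold and 1.38-fold lower (both chosen after their values were seen). Nrg3 was not called under any of the other 4 scalings, where its log2 fold change ran from -0.27 to -0.03.

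Other EF-hand calcium proteins were lower in 9 of 12 tested and higher in 1, with a median of -0.55. Kcnip1, a channel-interacting sensor of interneurons, averaged 326 ± 28.6 in TRAP RNA and 997 ± 92.3 in unbound RNA (SD, n = 3 each), 3.06-fold lower. Necab3 was 2.41-fold and Hpcal4, a visinin-like sensor, 1.76-fold lower, while Necab1 was 1.09-fold higher. After centring on the median of all probe sets 5 were lower and 4 higher. Quantile normalisation gave 9 and 1, centring on pan-neuronal genes 5 and 2, and centring on the median of genes tested 8 and 2.

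**Figure D4:**
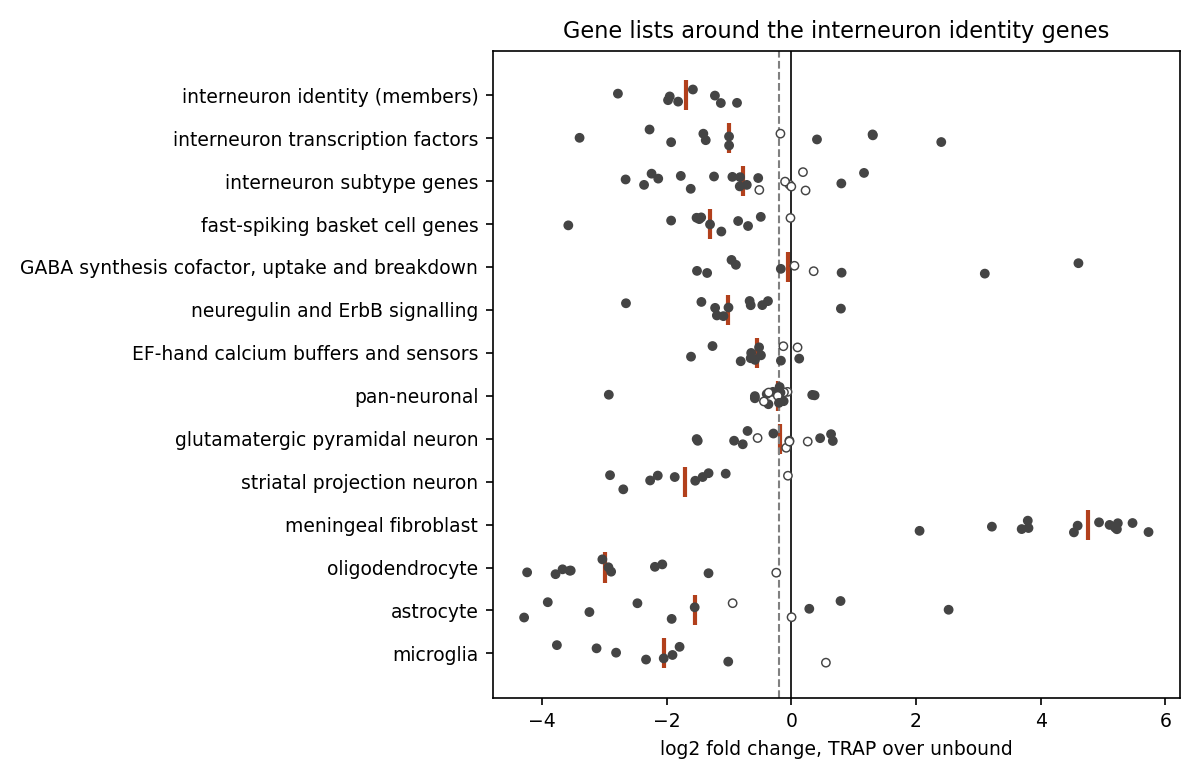
Log2 fold change of TRAP over unbound for each tested gene of each list, filled where limma called it and open where it did not, with list medians in red and the median of all genes dashed at -0.21. Medians of the interneuron lists fall between -1.70 for the identity genes and -0.06 for GABA uptake and breakdown, beside 4.76 for meningeal fibroblast genes.

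Markers of other cell types moved with the same contrast, and their part in the interneuron values was not tested. Striatal projection neurons also make GABA and transcribe Gad1, Gad2, Slc32a1 and Calb1. Their markers were lower in 9 of 10 tested (median -1.71), with a summed intensity of 6947 to 8922 on TRAP arrays and 21877 to 22969 on unbound arrays. Drd1 was 6.49-fold and Pdyn 7.52-fold lower, the second with TRAP values under 50. None of the 10 was at 0 on any array, which does not show presence, since probe sets near background also read above 0. Pdyn and Drd2 (TRAP mean 37.0) passed the filter through the unbound group alone.

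Markers of all neurons had a median of -0.22, close to that of all genes, with 10 of 17 tested lower, 2 higher and a summed intensity of 183779 to 188800 on TRAP arrays and 219274 to 233238 on unbound arrays. These counts hold on the deposited scale: after centring on the median of all probe sets 2 were lower and 8 higher (median 0.21), and after centring on pan-neuronal genes 2 and 4. Quantile normalisation gave 7 lower and 2 higher, and centring on the median of genes tested 3 and 2. Map2, a dendritic microtubule protein gene, was the exception in size at 7.63-fold lower. Markers of glutamatergic pyramidal neurons, the labelled target, were lower in 6 and higher in 3 of 14 tested (median -0.19). After centring on the median of all probe sets or on pan-neuronal genes 4 were lower and 7 higher (medians 0.25 and 0.19). Quantile normalisation and centring on the median of genes tested each gave 4 lower and 4 higher (medians -0.03 and 0.02). The summed intensity of the pyramidal markers was 32483 to 37854 on TRAP arrays and 38170 to 42961 on unbound arrays. These sums include Cck, with means of 10068 in TRAP RNA and 10253 in unbound RNA, which is also in the list of interneuron subtype genes.

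Outside the neurons, meningeal fibroblast markers were higher in 14 of 14 tested (median 4.76), summing to 74615 to 79433 on TRAP arrays and 7785 to 11379 on unbound arrays. Among them Lum, Col3a1, Col1a2, Foxc1 and Foxc2 had unbound means under 50 and passed the filter through the TRAP group alone. Markers of oligodendrocytes were lower in 11 of 12 (median -2.99), summing to 9350 to 15037 on TRAP arrays and 54527 to 60490 on unbound arrays. Astrocyte markers were lower in 6 and higher in 3 of 11 (median -1.55, summed 20601 to 24891 on TRAP arrays and 31666 to 42246 on unbound arrays). Microglial markers were lower in 8 of 9 (median -2.05, summed 546 to 794 on TRAP arrays and 1694 to 2246 on unbound arrays). Of the microglial markers, Cx3cr1, P2ry12, Gpr34, C1qa and C1qc had TRAP means under 50. So had Myrf of oligodendrocytes and Gfap of astrocytes. These genes passed the filter through the unbound group alone, so their lower values go with the filter.

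By distance over the 6 arrays, 5 genes lay closest to the median centred profile of the 8 interneuron genes. They were Apln (distance 0.12 in log2 units), Adgrl3 (0.14), Fam214a (0.15), Nav1 (0.16) and Rerg (0.16). Apln, which encodes the peptide apelin, read 68.7, 78.4 and 68.7 on the TRAP arrays, against 223, 228 and 247 on the unbound arrays. Among the 8 genes themselves the distance ran from 0.40 for Slc32a1 to 1.48 for Pvalb. The 5 were picked as the nearest of all other genes tested, so their smaller distances can follow from that choice alone.

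Of the 9 genes, 5 lie on chromosome 2, namely Gad1, Gad2, Slc32a1, Lhx6 and Dlx1, where 8.06% of the genes tested with a known position lie. Pvalb is on chromosome 15, Calb1 on 4, Calb2 on 8 and Erbb4 on 1. This is a description of the choice of genes and of the genome, and no test was made of it.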

How the data were processed

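RNA from 3 TRAP and 3 unbound samples was measured on 6 mouse expression arrays, from 15 ng of RNA amplified in 2 cycles per the labels' protocols. The deposited values are linear intensity per probe set made by the authors with GCRMA, per the submitters' processing notes; its version and whether both groups were processed in 1 run are not given in the sources used here. 0 columns were left unused.

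On the log2 scale the groups were compared in R 4.3.3 by limma 3.58.1 (eBayes after lmFit, and treat for 2-fold), with Benjamini-Hochberg adjustment at 0.05. Control probe sets were left out, and probe sets with a mean of at least 50 in 1 group were kept. The kept probe set with the highest mean represented a gene in the test over 12070 genes. The number of arrays limits the precision. The limma script was tested on simulated data with 200 changed genes.

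Named genes were all 9 interneuron genes, S100a10, up to 3 called genes in each direction per pathway list, up to 2 per cell type list, and the 5 genes nearest in profile. The genes and lists were chosen with earlier results of these data known. Same-numbered TRAP and unbound samples deviated together (r = 0.49, 0.45 and 0.36 across 12070 genes, which are not independent replicates; other pairs -0.37 to -0.04), so the numbers pair the samples, and the paired fit was an alternative. Other alternatives changed the scaling, the filter, the probe set choice and the replicates used.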

Additional observations from a re-analysis of the deposited data

How the results depend on the processing

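The 8 tested genes stayed lower and past the threshold in every alternative that gave a value, 17 to 19 per gene, with a highest limma adjusted p of 0.0128, for Slc32a1 without unbound replicate 3. With the replicate block the pairing gave 2990 genes higher and 5797 lower, and none of the 8 calls changed. Centring on the median of all probe sets gave 5715 genes higher and 2681 lower (68.1% of calls higher, against 33.8% as deposited), and centring on pan-neuronal genes 4985 and 2795 (64.1%). Quantile normalisation gave 50.9% and centring on the median of genes tested, added after seeing the data, 50.6%. The median of all genes was 0.23, 0.17, 0.0038 and 0.0043 under these 4 scalings. The median of the 8 interneuron genes under them was -1.27, -1.33, -1.47 and -1.49. The Slc32a1 probe set 1456457_at turned to 0.13 (limma adjusted p = 0.026) under centring on the median of all probe sets. With no filter on low values 4800 of 18193 genes were higher and 8346 lower, and of the interneuron genes 1, Erbb4, was higher (median over 9 genes -1.58). Without repeated values 1373 of 6975 genes were higher and 2733 lower. Then 5 of 5 interneuron genes with a value were lower, with a median of -1.82, and Gad1, Calb2 and Lhx6 had none. With unmarked probe sets only the median over 7 genes was also -1.82, and Lhx6 had no value. The mean of probe sets gave -0.94 for Slc32a1, -1.33 for Calb1 and -1.67 for Gad1, and Calb1 stood at -1.77 without repeated values. Dim probe sets limit Erbb4.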
